A study of Homo sapiens with 4 samples.

Results

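HADH and the beta-oxidation enzymes beside it are 10 genes: the dehydrogenases HADH, HADHA, EHHADH, HSD17B10 and ACADM, the hydratase ECHS1, the isomerases ECI1 and ECI2, and the thiolases ACAA2 and HADHB. They were taken by gene symbol from 2 RNA tables that together list 13092 genes, and each symbol matched a single row. All 10 had a mean of at least 1 RPKM (reads per kilobase of transcript relative to all assigned reads) over both libraries, as did 10331 genes of the tables. The tables come from RKO, an established and poorly differentiated human colon carcinoma line. Overexpressing cells carry the genotype label HADH-S overexpression and control cells the label WT, with 1 RNA library each. HADH-S is a form of HADH that the series title calls a nuclear isoform, and the RNA comparison asks which genes respond to it. The labels do not say how overexpression was achieved, from how many clones the cells came, or whether the control cells carried an empty vector. The chromatin libraries of the series were not analysed here.

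Mitochondrial beta-oxidation shortens a fatty acyl-CoA in repeated turns of the same reactions. An acyl-CoA dehydrogenase such as ACADM, the medium-chain enzyme, introduces a double bond, and a hydratase adds water across it. A 3-hydroxyacyl-CoA dehydrogenase then oxidises the hydroxyl group with NAD+, and a thiolase releases acetyl-CoA. HADH is the dehydrogenase of short and medium chains, while long chains pass through the mitochondrial trifunctional protein, made of HADHA and HADHB. ECI1 and ECI2 move misplaced double bonds of unsaturated chains into a position that the hydratase can use. EHHADH is a peroxisomal enzyme with hydratase, isomerase and dehydrogenase activity.

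The library of HADH-S overexpressing cells held 6963608 assigned reads over 12612 listed genes, and the control library 6773421 over 12501. With 1 library per group there was no test between conditions and no replicate check, and every interval below covers counting error only. Of the markers of colon carcinoma epithelium, 4 of 9 were listed, namely EPCAM, KRT8, KRT18 and CDX2, with a summed level of 110.6 RPKM in overexpressing cells and 106.0 in control cells. KRT19, CDH1, VIL1, CDX1 and LGALS4 were listed in neither table. Markers of leukocytes, endothelium and hepatocytes were all unlisted, and the fibroblast markers summed to 0.0751 RPKM in overexpressing cells and 0.0553 in control cells.

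The stretches upstream of HADH, ECI1 and HADHA are shown because HADH and ECI1 had the largest ratios of the 10 genes and because HADHA shares its upstream region with HADHB. HADH is the overexpressed gene, so its ratio cannot be read as the output of the stretch shown. No link between these sequences and the ratios was tested. Each stretch is the 250 bases before the RefSeq start of the gene (build GRCh38.p14), written 5′ to 3′ on the gene's own strand. Capitals mark the GC box GGGCGG and the CCAAT box, each searched on both strands. The HADH stretch is chr4:107989639-107989888 on the plus strand, that of ECI1 is chr16:2251588-2251837 on the minus strand, and that of HADHA is chr2:26244633-26244882 on the minus strand.
HADH: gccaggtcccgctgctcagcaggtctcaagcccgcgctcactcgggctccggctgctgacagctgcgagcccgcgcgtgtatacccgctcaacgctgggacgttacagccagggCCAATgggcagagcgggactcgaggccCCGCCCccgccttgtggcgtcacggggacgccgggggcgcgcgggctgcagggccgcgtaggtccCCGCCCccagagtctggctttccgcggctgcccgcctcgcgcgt
ECI1: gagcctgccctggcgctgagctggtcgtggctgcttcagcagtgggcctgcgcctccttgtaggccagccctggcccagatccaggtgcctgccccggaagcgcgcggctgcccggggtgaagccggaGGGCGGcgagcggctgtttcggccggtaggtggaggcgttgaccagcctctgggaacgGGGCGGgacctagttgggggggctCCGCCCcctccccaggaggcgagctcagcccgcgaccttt
HADHA: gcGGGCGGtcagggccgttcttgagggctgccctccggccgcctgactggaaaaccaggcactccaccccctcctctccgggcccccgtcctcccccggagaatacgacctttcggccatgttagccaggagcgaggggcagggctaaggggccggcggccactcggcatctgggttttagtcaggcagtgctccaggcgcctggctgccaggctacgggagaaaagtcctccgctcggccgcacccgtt

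G and C made up 74.4% of the HADH stretch, 72.8% of that of ECI1 and 68.8% of that of HADHA. Over the 9 enzymes with an entry, the content ran from 63.2% for HSD17B10 to 81.6% for ECI2. The content of all promoters was not computed. The GC box was present upstream of 8 of the 9 enzymes with an entry, ACAA2 being the exception, and upstream of 42.6% of all 35116 promoters of the same length. Those promoters include every start given for a gene, while each enzyme counts with its most upstream start only. HADH had 2 copies of the GC box, 109 and 44 bases before its start, ECI1 had 3, and ECI2 and ECHS1 had 5 each. The CCAAT box stood upstream of HADH and HSD17B10, 2 of the 9, against 32.0% of all promoters. The motif AAGGTCA of estrogen-related receptors, held by 3.44% of all promoters, was in none of the 9 stretches, which says only that these letters are not in these windows. The start sites of HADHA and HADHB lie 307 bases apart on opposite strands, so their upstream stretches share 194 bases. The only GC box of HADHA lies in this shared part and is also counted for HADHB. EHHADH had no entry.

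HADH, the overexpressed gene, was about 2.05 times as high in overexpressing cells. HADH (ENSG00000138796, chr4:107989889-108035171) was at 54.4 RPKM in overexpressing cells, from 651 reads, and at 26.5 RPKM in control cells, from 309 reads. The counting intervals of the levels ran from 50.3 to 58.7 RPKM in overexpressing cells and from 23.7 to 29.7 RPKM in control cells, and did not overlap. The 95% counting interval of the ratio ran from 1.79 to 2.35, in the direction of the label. In bulk RNA, more RNA per cell and more cells with the transcript cannot be told apart.

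HADH was the only one of the 10 enzymes past a 2-fold difference, on the log2 scale of overexpressing over control cells after 1 had been added to every RPKM, where its value was 1.01. That limit was passed upward by 0.3% of the 10331 genes averaging at least 1 RPKM, and HADH ranked at position 31 from the top, the lowest of the genes past it. It was passed downward by 0.0484% of genes and by 0 of the 10 enzymes. Among the 7214 genes with at least 300 reads over both libraries, 9 (0.125%), HADH included, had a value at least this far from 0. HADH lay below the limit under each rescaling of the libraries, with 0.984 after setting equal RPKM totals, and at 0.913 with a pseudocount of 5.

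The row for HADH is labelled with 1 transcript, ENST00000505878, of 1719 nt with a coding span of 1170 nt. RefSeq gives 3 curated mRNAs for the gene. It also gives a second start site, at position 108004611 of chromosome 4, which lies 14722 bases downstream of the main one. The tables hold 1 value per gene, so HADH-S and the endogenous forms cannot be told apart in them. The level of HADH placed it above 89.2% of listed genes in overexpressing cells and above 77.7% in control cells.

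**Figure D1:**
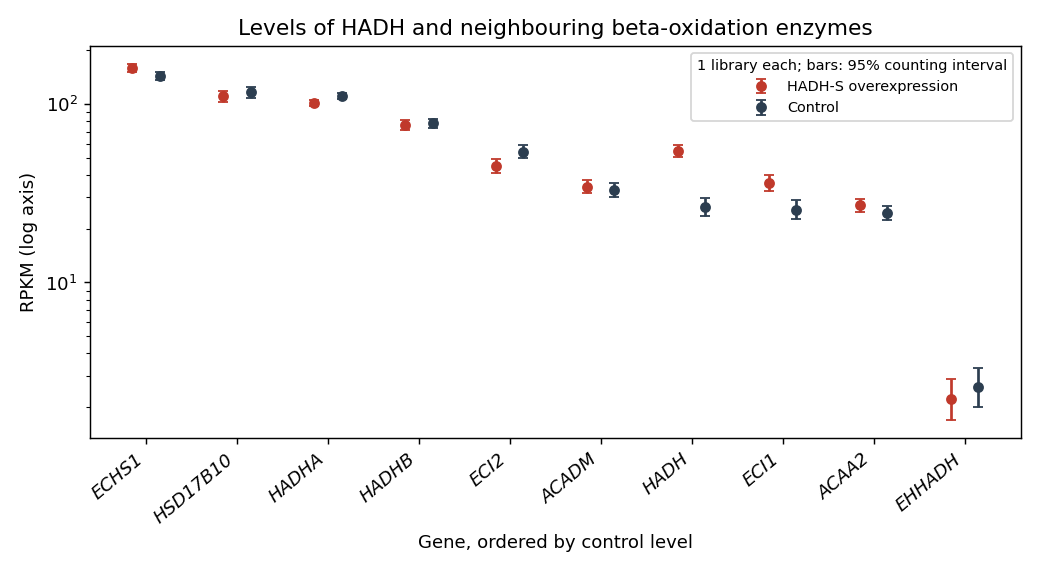
RPKM of the 10 enzymes (log axis) in HADH-S overexpressing cells (red, left of each pair) and control cells (dark, right), with 1 library each and bars for the 95% counting interval. HADH, at 54.4 RPKM in overexpressing and 26.5 RPKM in control cells, and ECI1, at 36.2 RPKM in overexpressing and 25.6 RPKM in control cells, have the widest gaps between their bars, HADHA and ECI2 have narrow ones, the other bars overlap, and EHHADH lies far below the rest.

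None of the other 3 dehydrogenases of 3-hydroxyacyl-CoA had a counting interval above 1. HADHA (ENSG00000084754, chr2:26190635-26244632), the subunit of the trifunctional protein with hydratase and long-chain dehydrogenase activity, was at 101.4 RPKM in overexpressing cells, from 2105 reads, and at 111.1 RPKM in control cells, from 2245 reads. Its ratio was 0.912 (0.859 to 0.968), an interval that lies below 1. HADHA overlaps the neighbouring gene GAREM2 by 13670 bases, and GAREM2 was at 5.97 RPKM in overexpressing cells and 5.67 in control cells.

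HSD17B10 (ENSG00000072506, chrX:53431258-53434376) acts on short branched chains in isoleucine breakdown and is also a subunit of mitochondrial RNase P. It was at 110.6 RPKM in overexpressing cells, from 735 reads, and at 116.7 RPKM in control cells, from 754. The ratio of 0.948 had an interval of 0.855 to 1.05, which includes 1. EHHADH (ENSG00000113790, chr3:185190624-185254049), the peroxisomal enzyme, was at 2.23 RPKM in overexpressing cells, from 59 reads, and at 2.60 RPKM in control cells, from 67 reads. Its ratio of 0.857 has the widest relative interval of the 10 enzymes, 0.593 to 1.23.

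HADH, the overexpressed gene, held a larger share of the summed RPKM of the genes with this activity in overexpressing cells. Of the summed RPKM of HADH, HADHA, EHHADH and HSD17B10, HADH held 20.2% in overexpressing cells and 10.3% in control cells. The share of HADHA was 37.7% in overexpressing cells and 43.3% in control cells, and that of HSD17B10 was 41.2% in overexpressing cells and 45.4% in control cells. The sum itself was 268.6 RPKM in overexpressing cells and 257.0 RPKM in control cells, a ratio of 1.05. Without HADH the sum was 214.2 RPKM in overexpressing cells and 230.4 RPKM in control cells. The level of HADH was below those of HADHA and HSD17B10 in the same cells, at 0.536 (0.491 to 0.586) of the HADHA level in overexpressing cells, against 0.239 (0.211 to 0.269) in control cells. mRNA shares are not shares of enzyme activity, since each enzyme has its own chain-length range and protein level. The HADH value also includes any RNA of HADH-S, the form that the series title calls nuclear. Its share therefore cannot be read as mRNA for the mitochondrial step.

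**Figure D2:**
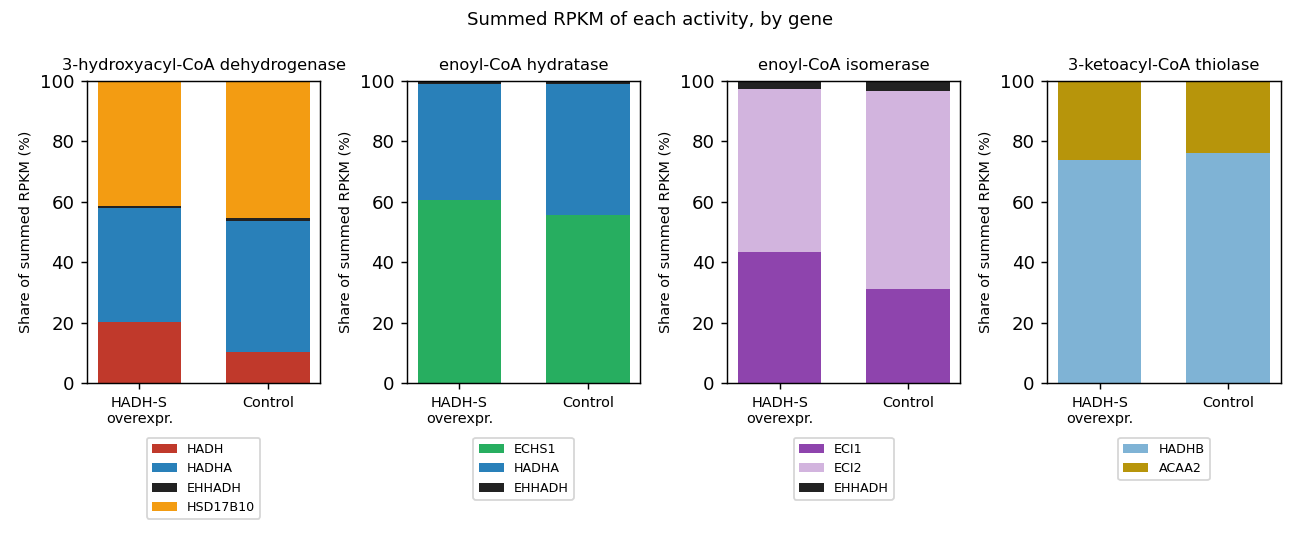
Share of the summed RPKM (percent) that each gene holds within 4 activities, with overexpressing cells left of control cells in every panel and 1 library each. HADH covers 20.2% of the dehydrogenase bar in overexpressing cells and 10.3% in control cells, and ECI1 covers 43.4% of the isomerase bar in overexpressing cells and 31.1% in control cells.

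The isomerases differed in opposite directions. ECI1 (ENSG00000167969, chr16:2239402-2251587), a mitochondrial enoyl-CoA isomerase, was at 36.2 RPKM in overexpressing cells, from 380 reads, and at 25.6 RPKM in control cells, from 261. Its ratio was 1.42 (1.21 to 1.66). ECI2 (ENSG00000198721, chr6:4115706-4135575), an isomerase found in mitochondria and peroxisomes, was at 45.0 RPKM in overexpressing cells, from 441 reads, and at 54.1 RPKM in control cells, from 516. Its ratio was 0.831 (0.730 to 0.946).

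The ratio of ECI1 to ECI2 was 0.805 (0.700 to 0.925) in overexpressing cells and 0.472 (0.405 to 0.549) in control cells, so it was 1.70 times as high in overexpressing cells (1.38 to 2.10). Apart from HADH, ECI1 and ECI2 had the highest and the lowest log2 value of the enzymes, and the interval does not allow for this. The share of other gene pairs that differ this much was not computed. The sum of ECI1, ECI2 and EHHADH was 83.4 RPKM in overexpressing cells and 82.3 RPKM in control cells. A log2 value as far from 0 as that of ECI1, 0.49, was found in 0.998% of the genes with at least 300 reads, and one as far as that of ECI2, -0.26, in 11.8% of them. ECI1 overlaps the antisense RNA ECI1-AS1 by 1275 bases and ECI2 overlaps the pseudogene TEX56P, which was not listed in overexpressing cells and was at 0.179 RPKM in control cells. These overlaps, like that of HADHA, are between whole gene spans with introns, so they need not lie in counted sequence. The strand setting of the counting is not given in the sources used here. Whether reads of such neighbours were counted for the enzymes is therefore not known.

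Both thiolases had ratios whose intervals include 1. HADHB (ENSG00000138029, chr2:26244939-26290465), the thiolase subunit of the trifunctional protein, was at 76.2 RPKM in overexpressing cells, from 1060 reads, and at 77.8 RPKM in control cells, from 1053 reads (ratio 0.979, interval 0.898 to 1.07). ACAA2 (ENSG00000167315, chr18:49782164-49813533), the thiolase of shorter chains, was at 27.04 RPKM in overexpressing cells, from 551 reads, and at 24.5 RPKM in control cells, from 485 reads (ratio 1.11, interval 0.976 to 1.251). HADHA, whose protein assembles with that of HADHB, stood at 1.33 times the HADHB level in overexpressing cells (1.23 to 1.43) and at 1.43 times in control cells (1.33 to 1.54). The quotient of these ratios was 0.931, with an interval of 0.838 to 1.03 that includes 1, so a difference between the subunits was not detectable at this depth.

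ECHS1 (ENSG00000127884, chr10:133362485-133373354), the short-chain enoyl-CoA hydratase, was the most abundant of the 10 mRNAs in both libraries. It was at 159.8 RPKM in overexpressing cells, from 1421 reads, and at 143.5 RPKM in control cells, from 1241. Its ratio of 1.11 had an interval of 1.03 to 1.20, above 1. ACADM (ENSG00000117054, chr1:75724709-75763679) was at 34.5 RPKM in overexpressing cells, from 522 reads, and at 33.0 RPKM in control cells, from 485, a ratio of 1.05 (0.923 to 1.19).

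**Figure D3:**
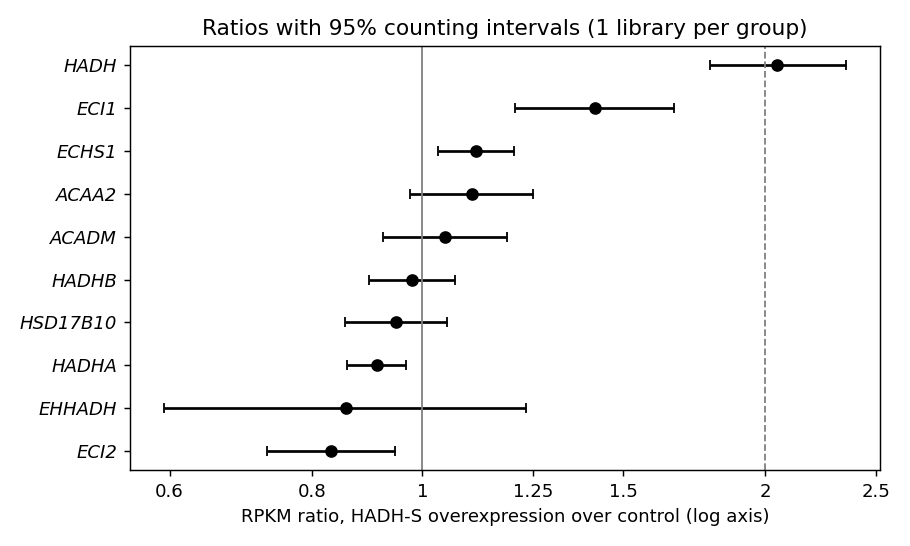
RPKM ratio of HADH-S overexpressing over control cells for each of the 10 enzymes (log axis, solid line at 1, dashed line at 2), with bars for the 95% counting interval and 1 library per group. HADH, ECI1 and ECHS1 lie wholly above 1, HADHA and ECI2 wholly below it, and the other 5 bars cross it.

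In all, 3 of the 10 enzymes had a counting interval above 1, against 13.8% of the 10331 genes, and 2 had one below 1, against 11.6%. Leaving out HADH, the gene chosen for overexpression, 2 of 9 enzymes had an interval above 1 and 2 had one below. Whether an interval leaves out 1 depends on depth as well as on the size of the difference. Among genes with at least 300 reads, which include 9 of the 10 enzymes, 15.1% had an interval above 1 and 14.5% one below. A log2 value of 0.32, the lower of the limits of size used, was reached upward by HADH and ECI1 only, 2 of the 10 enzymes. It was reached by 7.98% of all genes and 4.10% of those with at least 300 reads. Leaving out HADH, 1 of 9 enzymes reached it. The negative limit of -0.32 was reached by 0 of the 10, against 3.65% of all genes and 1.77% of those with at least 300 reads. The median log2 value was 0.02 over the 10 enzymes and -0.03 without HADH, beside 0.01 over all 10331 genes. The range without HADH was -0.26 for ECI2 to 0.49 for ECI1, beside a central 95% range of -0.36 to 0.49 over all genes and of -0.30 to 0.38 over those with at least 300 reads. ECI1 lay outside the range of the genes with at least 300 reads but inside that of all genes, at 0.486 beside an upper end of 0.493. ECI2 lay inside both.

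**Figure D4:**
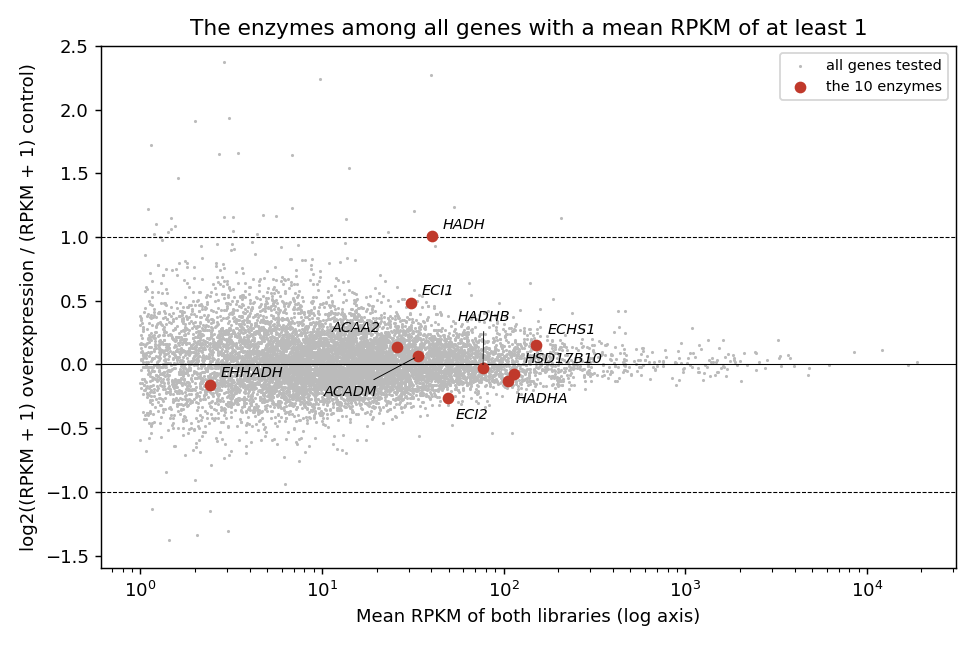
Log2 value of HADH-S overexpressing over control cells, with 1 added to each RPKM, against the mean RPKM of both libraries (log axis), for the 10331 genes with a mean of at least 1 RPKM (grey) and the 10 enzymes (red). Dashed lines mark a 2-fold difference; HADH touches the upper one at 1.01, ECI1 lies at 0.49, and the other 8 lie between -0.26 and 0.15.

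The order of levels among the enzymes was mostly shared by the libraries, but HADH moved within it, and ECI1 and ACADM changed places. With HADH-S the order from high to low was ECHS1, HSD17B10, HADHA, HADHB, HADH, ECI2, ECI1, ACADM, ACAA2 and EHHADH, and in control cells it was ECHS1, HSD17B10, HADHA, HADHB, ECI2, ACADM, HADH, ECI1, ACAA2 and EHHADH. HADH stood at position 5 in overexpressing cells, 1.21 times the level of ECI2 (1.07 to 1.37), and at position 7 in control cells, where it did not differ from ECI1 beyond counting error (1.04 times, interval 0.877 to 1.23). Other neighbours that did not differ beyond counting error were ECI1 and ACADM in overexpressing cells, and in control cells HSD17B10 and HADHA as well as ECI1 and ACAA2. Relative to each of HADHA, HSD17B10, ECHS1, ACADM, ACAA2, ECI1 and ECI2, HADH was higher in overexpressing cells, by a factor of 1.45 (1.17 to 1.79) against ECI1 at the least and of 2.47 (2.04 to 2.98) against ECI2 at the most. These comparisons between genes rest on the transcript length in each row, by which RPKM divides.

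Summed over the 10 enzymes, the level was 647.4 RPKM in overexpressing cells and 615.4 RPKM in control cells. HADH alone differed by 27.8 RPKM, beside a net 32.0 RPKM between these sums. The other enzymes differed in both directions, from -9.78 RPKM for HADHA to 16.3 RPKM for ECHS1, and largely offset each other. The 9 enzymes without HADH summed to 593.0 RPKM in overexpressing cells and 588.9 RPKM in control cells, a ratio of 1.01.

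Other genes of the pathway were taken from 8 lists with 78 genes, of which 71 were listed and 68 averaged at least 1 RPKM. A 2-fold difference was passed by 0 of the 68 upward and 0 downward. Of these, 7 had a log2 value of at least 0.32, against 7.98% of all genes, and 5 one of -0.32 or less, against 3.65%. Intervals lay above 1 for 15, against 13.8% of all genes, and below 1 for 8, against 11.6%, and the median was 0.04 on the log2 scale. Among the other mitochondrial beta-oxidation genes, 11 averaged at least 1 RPKM and 0 passed 0.32 in either direction, with a median of 0.04. ETFB, a subunit of the flavoprotein that takes electrons from acyl-CoA dehydrogenases, was at 11.8 RPKM in overexpressing cells and 9.85 in control cells (ratio 1.19, interval 1.00 to 1.42). ECH1, a dienoyl-CoA isomerase, was at 102.7 RPKM in overexpressing cells and 89.1 in control cells (ratio 1.15, interval 1.04 to 1.27). ACAD9, an acyl-CoA dehydrogenase that also serves complex I assembly, was at 16.6 RPKM in overexpressing cells and 19.1 in control cells (ratio 0.871, interval 0.739 to 1.03).

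The list with the largest single difference was that of peroxisomal beta-oxidation, to which EHHADH belongs by function. Of its 13 measured genes, 2 were above the limit of 0.32 and 1 was below -0.32, against 7.98% and 3.65% of all genes. The median of the list was 0.05. DECR2, the peroxisomal dienoyl-CoA reductase, was at 10.2 RPKM in overexpressing cells, from 110 reads, and at 5.33 RPKM in control cells, from 56 (ratio 1.91, interval 1.37 to 2.69). AMACR, a racemase of branched chains, was at 3.48 RPKM in overexpressing cells and 4.82 in control cells (ratio 0.723, interval 0.431 to 1.20). DECR1, the mitochondrial counterpart of DECR2, had a ratio of 1.03 (0.936 to 1.12); it was chosen after its values were seen.

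In fatty acid activation and carnitine entry, 2 of 11 genes were above 0.32 and 2 below -0.32, against 7.98% and 3.65% of all genes. The median of 0.15 turned to -0.05 over the 7 genes averaging at least 5 RPKM. Intervals lay above 1 for 5 of the 11 genes and below 1 for 2, against 13.8% and 11.6% of all genes. The carnitine transporter SLC22A5 was at 4.52 RPKM in overexpressing cells and 2.79 in control cells (ratio 1.62, interval 1.03 to 2.58), and the acyl-CoA synthetase ACSL5 at 4.71 RPKM in overexpressing cells and 3.17 in control cells (ratio 1.49, interval 1.09 to 2.03). CPT1C, a carnitine palmitoyltransferase form of the brain, had 24 reads in overexpressing cells and 37 in control cells (ratio 0.631, interval 0.361 to 1.08). The genes of this list with an interval below 1 were the acyl-CoA synthetases ACSL3, at 24.0 RPKM in overexpressing cells and 31.3 in control cells (ratio 0.765, interval 0.702 to 0.835), and ACSL4, at 42.8 RPKM in overexpressing cells and 49.2 in control cells (ratio 0.870, interval 0.813 to 0.932). The synthetase ACSL1 had an interval above 1, at 25.4 RPKM in overexpressing cells and 21.6 in control cells (ratio 1.17, interval 1.05 to 1.31). So did CRAT (ratio 1.22, interval 1.08 to 1.39) and CPT1A (ratio 1.17, interval 1.01 to 1.35). ACSL3, ACSL4, ACSL1, CRAT and CPT1A were chosen after their values were seen.

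HSD17B10, ECHS1 and related enzymes also serve the breakdown of branched-chain amino acids. Of 12 measured genes of that list, 1 was above 0.32 and 2 were below -0.32, against 7.98% and 3.65% of all genes. The median of the list was -0.00395. ACAD8, the isobutyryl-CoA dehydrogenase of valine breakdown, was at 21.8 RPKM in overexpressing cells and 15.9 in control cells (ratio 1.37, interval 1.16 to 1.63). HIBCH, also of valine breakdown, was at 3.19 RPKM in overexpressing cells and 4.43 in control cells (ratio 0.720, interval 0.497 to 1.04, which includes 1). ALDH6A1, of the same pathway, was at 1.87 RPKM in overexpressing cells and 2.70 in control cells (ratio 0.691, interval 0.502 to 0.946). Of the 6 measured ketone body genes, 0 passed 0.32 in either direction, with a median of -0.04. Among them, the dehydrogenase BDH2 had a ratio of 1.10 (0.880 to 1.38) and the transporter SLC16A1 one of 0.918 (0.865 to 0.975).

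Of the 4 measured genes for protein partners of the enzymes or their pathway, 0 passed 0.32 in either direction. GLUD1, the glutamate dehydrogenase that HADH protein binds and inhibits in pancreatic beta cells, was at 62.7 RPKM in overexpressing cells and 59.2 in control cells (ratio 1.06, interval 0.982 to 1.14). The other subunits of mitochondrial RNase P were TRMT10C, at 58.3 RPKM in overexpressing cells and 59.2 in control cells (ratio 0.985, interval 0.888 to 1.09), and PRORP, at 8.89 RPKM in overexpressing cells and 10.2 in control cells (ratio 0.875, interval 0.760 to 1.01). ELAC2, which trims the other end of mitochondrial tRNAs, had a ratio of 1.09 (1.01 to 1.19). Of the 6 measured relatives by fold or activity, 0 passed 0.32 in either direction. The largest were ECHDC1, at 43.7 RPKM in overexpressing cells and 52.2 in control cells (ratio 0.836, interval 0.759 to 0.921), the cytosolic thiolase ACAT2, which feeds sterol synthesis, at 54.4 RPKM in overexpressing cells and 64.98 in control cells (ratio 0.837, interval 0.748 to 0.938), and HSD17B8, with 10 reads in overexpressing cells and 8 in control cells.

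Among transcriptional regulators of fatty acid oxidation, 2 of 8 measured genes were above 0.32 and 0 below -0.32, against 7.98% and 3.65% of all genes. Their median was 0.06. The retinoid X receptors, which pair with PPAR, were RXRB, at 9.28 RPKM in overexpressing cells and 6.74 in control cells (ratio 1.38, interval 1.09 to 1.74), and RXRA, at 10.3 RPKM in overexpressing cells and 8.03 in control cells (ratio 1.29, interval 1.10 to 1.499). The estrogen-related receptor ESRRA was at 38.6 RPKM in overexpressing cells and 30.7 in control cells (ratio 1.26, interval 1.11 to 1.42), just short of the limit on the log2 scale. PPARA, the fatty acid receptor that induces these enzymes in liver, was at 2.47 RPKM in overexpressing cells and 2.33 in control cells, a ratio of 1.06 (0.848 to 1.32), and was chosen after its values were seen. PPARGC1B, coding for a coactivator of these receptors, was at 1.60 RPKM in overexpressing cells, from 118 reads, and at 2.17 RPKM in control cells, from 155 reads (ratio 0.740, interval 0.578 to 0.947), the 1 regulator with an interval below 1. PPARG was listed in neither table, and PPARGC1A, coding for a related coactivator, had 1 read in overexpressing cells and 3 in control cells, at or below the floor of 3 reads.

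**Figure D5:**
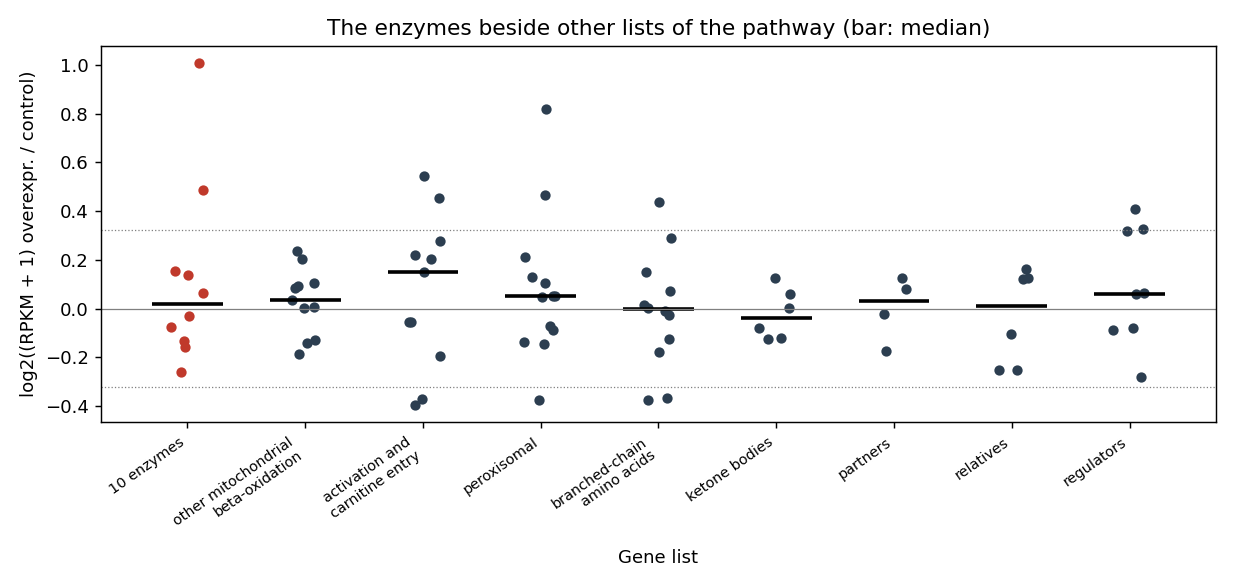
Log2 value of HADH-S overexpressing over control cells, with 1 added to each RPKM, for every gene with a mean of at least 1 RPKM in the 10 enzymes (red) and 8 lists of the pathway (dark); black bars are medians and dotted lines mark 0.32 and -0.32. HADH at 1.01 and DECR2 at 0.82 are the highest points, and the list medians lie between -0.04 and 0.15.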

How the data were processed

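RNA of 2 RKO libraries, 1 per group, was analysed. Per the file headers, the authors deposited 1 RPKM value per gene, in rows labelled with symbol, Ensembl gene and transcript, coding bounds and transcript length. Per the submitters' processing notes, shared by the series, the build was GRCh38 and the tools included SAMtools 1.9, fastp 0.23.2, ChIPseeker and MACS2 1.4.2; RNA aligner, counter, strand setting and annotation are each not given in the sources used here. RPKM multiplied by length was divided by the value of 1 read, fitted in each library. The result was a whole number of reads for 100% of values within 0.01 reads. Recovered reads give exact conditional (Clopper-Pearson) 95% intervals for ratios and exact Poisson intervals for levels. No molecular identifiers are described, so reads may not be independent molecules, and intervals cover counting error only. Unlisted genes were taken as 0. At the median length, 3 reads equal 0.137 RPKM in overexpressing cells and 0.141 in control cells. Log2 values use a pseudocount of 1 and genes averaging at least 1 RPKM.

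Members, lists and motifs were chosen with earlier results of these data known. By rule, named list genes were the 3 with the largest absolute log2 value per list, plus GLUD1, TRMT10C and PRORP. Outside the rule, DECR1, ACSL1, ACSL3, ACSL4, CRAT, CPT1A, PPARA, PPARG, PPARGC1A and PPARGC1B were chosen after their values were seen. Some of these genes are not reported here. A gene on 2 lists counts in both, and older symbols were matched by identifier. Upstream sequences are RefSeq's (GRCh38.p14), with 9 of 10 enzymes matched. Steps were tested on simulated reads. Alternatives were pseudocounts, rescalings and filters. Python 3.11.15, numpy 2.4.6, pandas 2.3.3, scipy 1.17.1 and matplotlib 3.10.9 were used.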

Additional observations from a re-analysis of the deposited data

How the results depend on the processing

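With 1 library per group no replicate could be left out. No paired analysis was possible because each group has a single library. HADH kept its direction under its 6 alternatives, between 0.913 and 1.03 on the log2 scale, but fell short of the 2-fold limit at 0.913 with a pseudocount of 5, 0.984 with equal RPKM totals, 0.998 with the median of all genes at 0 and 0.993 with equal 75th percentiles. The number of enzymes past 2-fold was then 0 in place of 1. The other 9 enzymes moved by less than their counting intervals in all 54 alternative values, with ECI1 between 0.43 and 0.50 and ECI2 between -0.29 and -0.24. Of the other pathway genes, 2 in place of 7 reached a log2 value of 0.32 with a pseudocount of 5, and 1 in place of 5 reached -0.32 with a pseudocount of 5 or a mean RPKM of at least 5; a larger pseudocount shrinks low values by construction, and that filter removes low genes. With the filter at 5 RPKM the median of the regulators was 0.32 over 4 genes, in place of 0.06 over 8, and that of activation and carnitine entry was -0.05 over 7 genes, in place of 0.15 over 11. Without HSD17B10 the share of HADH in the dehydrogenase sum was 34.4% in overexpressing cells and 18.9% in control cells, a gap of 15.5 percentage points in place of 9.92. EHHADH, with 59 reads in overexpressing and 67 in control cells, is the enzyme whose ratio depth limits most.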
